A study of Mus musculus with 2 samples.

Results

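CD8 T cells of the neonatal mouse lung were selected on their own measured counts, as barcodes with at least 2 UMIs (counted mRNA molecules) of the CD3 genes *Cd3e*, *Cd3d* and *Cd3g*, at least 1 UMI of *Cd8a* or *Cd8b1*, and no UMI of *Cd4*. Barcodes with a UMI of the B cell gene *Cd79a*, the macrophage gene *Csf1r*, the endothelial gene *Cdh5* or the epithelial gene *Epcam* were left out. These criteria chose 484 cells among 15520 barcodes kept for having 500 or more genes and no more than 20% of UMIs from mitochondrial genes, 67 of 3809 in room air and 417 of 11711 in hyperoxia. Wild-type C57BL/6 mice were reared in room air (21% O2) or hyperoxia (80% O2) from postnatal day 0 to 14, and their lungs were digested for scRNA-seq at 2 weeks of age. The lungs of 8 mice were pooled in each library and each group had 1 library, so neither group had a replicate and no test between groups was possible. Hyperoxia from birth is a model of bronchopulmonary dysplasia, the chronic lung disease of preterm infants, and the libraries were made to compare the cells of both lungs.

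CD8 T cells recognise peptides on MHC class I molecules through the T cell receptor, its CD3 chains and the CD8 coreceptor, a pair of CD8α and CD8β chains. Naive CD8 T cells circulate between blood and lymph nodes by means of homing receptors such as CCR7. After activation they make cytotoxic granules and the chemokine CCL5, lose these homing receptors, and some of their progeny stay in tissues such as the lung as memory cells.

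The 67 CD8 T cells of room air held 617176 UMIs (median 8664 per cell) and the 417 of hyperoxia held 3132369 (median 6076). Levels are given as CPM, the UMIs of a gene per 1000000 UMIs, summed over the CD8 T cells of a library. Exact 95% intervals are printed in brackets and cover counting error only, not the spread between mice. Intervals of levels and ratios treat each UMI as independent and leave out the spread between cells. They are therefore too narrow where few cells hold many UMIs of a gene. One UMI was worth 1.62 CPM in the library of room air and 0.319 CPM in that of hyperoxia, so a gene without any UMI could still have been at up to 4.86 or 0.958 CPM (3 counts). The libraries shared 17 barcodes, of which 0 were CD8 T cells in room air and 1 in hyperoxia. *Xist*, expressed in female cells, was found in 23.9% of the CD8 T cells of room air and 30.5% of those of hyperoxia.

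The label was checked against the genes of T cells. *Cd8b1*, the CD8β chain, was detected in 66 of 67 cells of room air (734 CPM) and 395 of 417 of hyperoxia (599 CPM). *Cd8a*, the CD8α chain, was detected in 47 of 67 cells (266 CPM) and 345 of 417 (294 CPM). *Cd3e* was at 230 and 173 CPM, and *Cd3d* at 883 CPM in both libraries. These values follow from the selection and were not compared further. Genes that the selection did not use were also those of T cells. *Lck*, the kinase that binds the CD8 coreceptor, was at 259 and 241 CPM, and *Themis*, which is needed for thymocyte selection, at 109 and 127 CPM. Several markers of other lymphocytes were at or near 0, but not all. *Foxp3* of regulatory T cells had 0 UMIs in room air and 4 in hyperoxia, *Cd40lg* of helper T cells 1 and 1, and *Zbtb7b*, which directs the CD4 fate, 1 and 9. The natural killer (NK) cell receptor *Ncr1* had no UMI in either library, *Klrb1c* (NK1.1) had 0 and 9, and *Il17a* none. *Cd163l1* of gamma delta T cells was found in 4 of 67 cells (5.97%) and 24 of 417 (5.76%). In CD4 T cells the shares were 1.15% and 0.366%, and in B cells 0.268% and 0.0796%. *Tyrobp*, listed for NK cells, was at 50.2 and 28.4 CPM, against 97.9 and 103 CPM in B cells. Admixture of such cells was not tested. *Zbtb16*, the factor of innate-like T cells, had 0 UMIs in room air and 47 UMIs in 18 of the 417 cells of hyperoxia. Its level there was 3.09-fold the 3 counts that room air allows. That bound treats UMIs as independent, whereas 0 of 67 cells allows a share of up to 5.36% of cells. A difference in the share of *Zbtb16*-positive cells was thus not shown. T cell receptor constant and variable genes were not analysed here.

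Cells close to the selection limits were few on the CD3 side. In room air, the 3 cells with exactly 2 CD3 UMIs had *Nkg7* at 88.6 CPM, and the 3 cells with 1 CD3 UMI, just outside, at 703 CPM. In hyperoxia the corresponding 15 and 14 cells had 174 and 317 CPM. Cells that met every other limit but had no UMI of either CD8 gene numbered 64 in room air and 305 in hyperoxia, with *Nkg7* at 617 and 325 CPM, against 770 and 1129 CPM in the selected cells. Cells that met every other limit but held a UMI of *Cd79a*, *Csf1r*, *Cdh5* or *Epcam* numbered 21 in room air and 95 in hyperoxia, and their *Nkg7* levels were 701 and 743 CPM.

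mRNA of other lineages was present in many CD8 T cells. *Sftpc*, the surfactant gene of alveolar type II cells, was detected in 82.1% of CD8 T cells in room air and 95.4% in hyperoxia, close to the 83.4% and 91.7% of B cells, which do not make it. The 8 listed stromal genes summed to 1325 CPM in room air and to 2889 CPM in hyperoxia, and the 8 epithelial genes to 765 and 1501 CPM. The 10 myeloid genes summed to 369 and 289 CPM, the 7 listed B cell genes in the files to 61.6 and 79.2 CPM, the 7 endothelial genes to 194 and 191 CPM, and the 5 erythroid genes to 19.4 and 66.7 CPM. Most of the stromal mRNA sat in few cells. Without the cells that resembled simulated doublets, 1 CD8 T cell in room air and 29 in hyperoxia, the stromal sum was 189 and 501 CPM. The share of barcodes marked in this way was set beforehand by the number of barcodes deposited. It came to 129 of 3809 kept barcodes in room air and 1239 of 11711 in hyperoxia, so 1 and 29 are not measured doublet counts. The 29 cells were 6.95% of the CD8 T cells in hyperoxia and held 14.4% of their UMIs. The part of free or doublet mRNA in the results below was not tested beyond the values given without these cells.

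The first comparison asked how frequent CD8 T cells were. They made up 1.76% [1.37 to 2.23] of the kept barcodes in room air and 3.56% [3.23 to 3.91] in hyperoxia, a difference of 1.80 percentage points [1.23 to 2.33]. CD4 T cells, chosen by the same criteria with *Cd4* in place of *Cd8a* and *Cd8b1*, were 2.28% and 2.33%, a difference of 0.0471 points [-0.542 to 0.583]. NK cells were 0.473% and 0.538%, and B cells 9.79% and 10.7%. The counting intervals of the differences in CD4 T, NK and B cells included 0. All cells with at least 2 CD3 UMIs were 6.04% and 8.74% of the kept barcodes, a difference of 2.71 points [1.76 to 3.61]. Among the cells with at least 2 CD3 UMIs, CD8 T cells were 67 of 230 (29.1%) in room air and 417 of 1024 (40.7%) in hyperoxia, a difference of 11.6 points [4.57 to 18.1]. CD4 T cells were 37.8% and 26.7% of these cells, so the CD8 to CD4 ratio was 0.770 [0.551 to 1.07] in room air, compared with 1.53 [1.31 to 1.79] in hyperoxia. Cells without a UMI of any coreceptor were 27.8% and 29.8% of the CD3-positive cells, and cells with UMIs of both coreceptors 5.22% and 2.83%. Those without were 1.68% and 2.60% of all kept barcodes, a difference of 0.924 points [0.385 to 1.41], so the higher share was not limited to CD8 T cells. CD4 or CD8 T cells whose coreceptor was missed are counted among them. Detection of these genes depends on depth. When each barcode was first reduced to 1500 UMIs, 50 and 253 CD8 T cells were found, and their share of the barcodes was still higher in hyperoxia, by 0.919 points [0.397 to 1.39]. Their share of the CD3-positive cells was then higher by 7.29 points, with an interval that included 0 [-0.297 to 14.3]. A share of barcodes does not give cell numbers per lung, and digestion and loading of each library were not replicated.

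**Figure D1:**
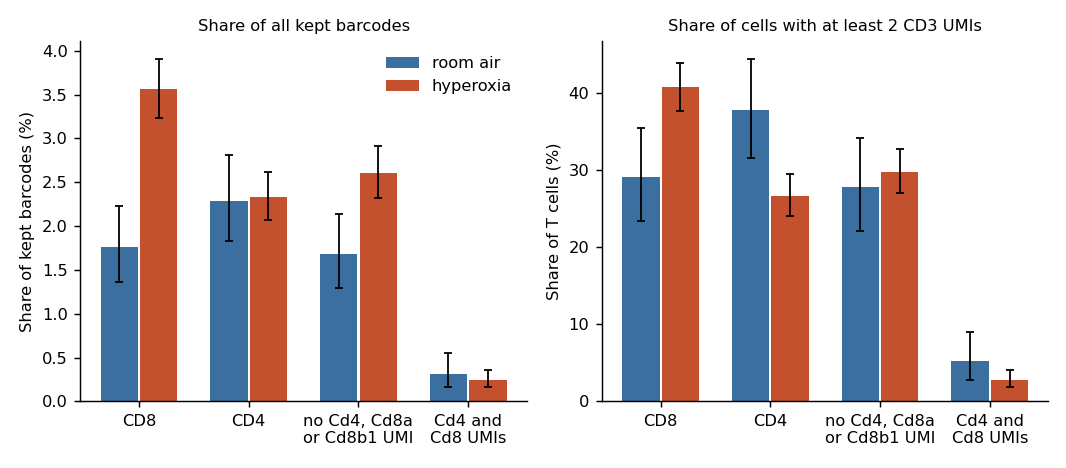
Share of kept barcodes (left, in %) and of cells with at least 2 CD3 UMIs (right, in %) that were CD8 T cells, CD4 T cells, cells without a coreceptor UMI or cells with UMIs of both, in room air (blue) and hyperoxia (orange). Error bars are exact 95% intervals of counting error, with 1 library per group. The CD8 bar was 1.76% in room air and 3.56% in hyperoxia on the left, while the CD4 bars were 2.28% and 2.33%.

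The second comparison set CD8 T cells against CD4 T cells in each library, to show what distinguished them beyond the coreceptors. Of 3108 genes compared, 26 were at least 2-fold higher in CD8 T cells in both libraries (0.837%) and 31 at least 2-fold lower in both (0.997%). Apart from the CD8 chains, the 8 genes furthest above CD4 T cells were *Klrc2*, *Gzma*, *Klrc1*, *Ly6c2*, *Ccl5*, *Plac8*, *Klrd1* and *Atp8b4*. *Ccl5* (chr11:83525778-83530518, GRCm38, minus strand), a chemokine that attracts T cells and monocytes, was at 2212 CPM in CD8 T cells and 226 CPM in CD4 T cells of room air. In hyperoxia it was at 3592 and 164 CPM, which is 9.80-fold and 21.9-fold higher in CD8 T cells. *Gzma*, the granule protease granzyme A, was at 893 against 53.7 CPM in room air (16.6-fold) and 1081 against 61.0 CPM in hyperoxia (17.7-fold). *Klrc1*, which encodes the receptor NKG2A, was 12.1-fold and 16.2-fold higher. *Klrc2*, which encodes NKG2C, had 1 UMI in the CD4 T cells of each library, so its ratios of 63.6 [10.9 to 2556] and 112 [19.9 to 4436] were imprecise. *Klrd1*, which encodes their partner chain CD94, was 4.79-fold and 19.6-fold higher. *Ly6c2*, a surface protein of memory CD8 T cells, was 9.84-fold and 26.2-fold higher, and *Plac8* 7.09-fold and 10.8-fold. *Atp8b4*, a predicted phospholipid transporter, was 6.22-fold and 4.66-fold higher. Several of these genes were higher still in the 18 and 63 NK cells: *Gzma* was at 7065 and 7401 CPM there, *Ccl5* at 6284 and 12487 CPM, and *Klrd1* at 1150 and 1004 CPM. *Ly6c2* (194 and 203 CPM) and *Plac8* (271 and 20.3 CPM) were lower in NK than in CD8 T cells.

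Among the genes furthest below CD4 T cells, *Tnfrsf4* (OX40), a costimulatory receptor of activated CD4 T cells, was at 4.86 CPM in CD8 and 63.3 CPM in CD4 T cells of room air and at 1.60 and 48.8 CPM in hyperoxia. *Ikzf2* (Helios) was at 74.5 against 310 CPM and 101 against 371 CPM. *St8sia6*, a sialyltransferase, had 0 UMIs in the CD8 T cells of room air and 4 cells with a UMI in hyperoxia, against 44.1 and 97.0 CPM in CD4 T cells. *Ly6c1*, *Tmem64*, *Tesc*, *Tspan32*, *Ass1* and *Capg* lay between log2 ratios of -3.62 and -1.70 in both libraries. Across the gene lists, 4 of 8 cytotoxic genes and 4 of 13 memory and effector surface genes were at least 2-fold higher in CD8 T cells in both libraries, and 0 of 8 and 2 of 13 were lower. Of 15 naive and recirculation genes 0 were higher and 1 lower, so this list did not separate the types at this threshold.

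**Figure D2:**
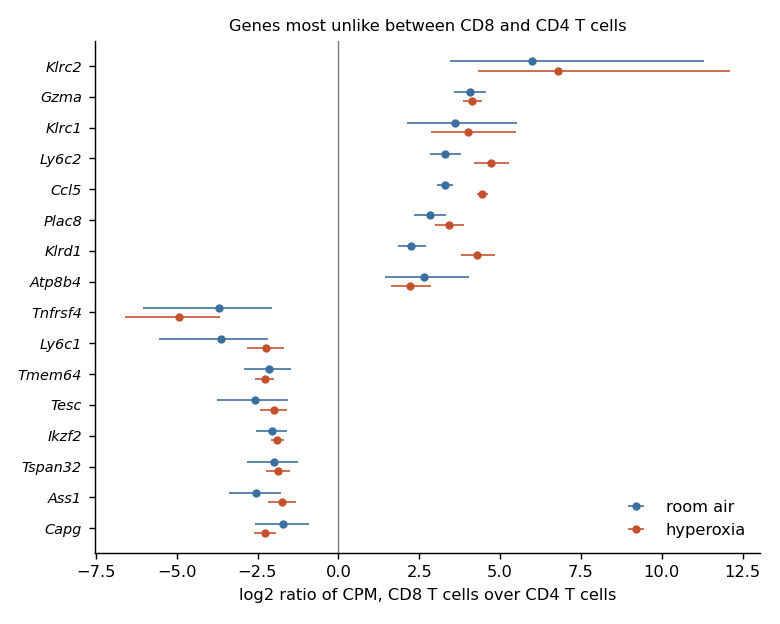
Log2 ratio of the CPM in CD8 T cells over CD4 T cells (horizontal axis) for the genes furthest apart in both libraries, room air in blue and hyperoxia in orange, with exact 95% counting intervals. The genes of the selection and *St8sia6*, which had no UMI in room air, are not drawn. The 8 upper genes lay above 0 and the 8 lower genes below 0 in both libraries.

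The CD8 T cells were not uniform. *Ccl5* divided them almost evenly: 34 of 67 cells of room air (50.7%) and 215 of 417 of hyperoxia (51.6%) held a UMI of it. The median count in these cells was 20.5 and 29 UMIs, and the highest 255 and 271. Cells with *Ccl5* had slightly more UMIs in all (median 9205 against 7951 in room air and 6564 against 5700 in hyperoxia). In B cells, which were used to judge free mRNA, 0.559% and 1.65% held a *Ccl5* UMI after every cell was reduced to 1500 UMIs, compared with 40.3% and 40.5% of CD8 T cells. The share of *Ccl5*-positive cells at equal depth thus differed by 0.183 points between libraries [-13.4 to 13.0].

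Cells with and without *Ccl5* differed in genes of effector and naive cells in both libraries. Of 3140 genes compared, 85 were at least 2-fold higher in *Ccl5*-positive cells in both libraries (2.71%) and 29 at least 2-fold lower (0.924%). Among the memory and effector surface genes 10 of 13 were at least 2-fold higher in both and 0 lower, and among the cytotoxic genes 6 of 10 were higher and 0 lower. Of these lists only 11 and 8 genes had a mean of at least 50 CPM over the 2 libraries. Genes that entered through their level in 1 kind of cell could count only on that side, so these counts describe the division and are no test of it. *Gzmb*, granzyme B, was found in 10 of 34 *Ccl5*-positive and 0 of 33 negative cells in room air, and in 80 of 215 and 3 of 202 in hyperoxia. *Gzmk*, granzyme K, was found in 7 of 34 and 0 of 33 cells in room air and in 56 of 215 and 3 of 202 in hyperoxia. *Klrc1* followed the same division, with 14 of 34 and 0 of 33 cells, and 79 of 215 and 3 of 202 cells. Of the 10 homing receptors and integrins compared 2 were at least 2-fold higher in both libraries and 0 lower. *Cxcr3*, the receptor for interferon-induced chemokines, was at 52.5 against 3.64 CPM in room air and 92.6 against 20.2 CPM in hyperoxia. *Ccr2*, the receptor for CCL2, was at 87.6 against 7.28 CPM and 102 against 12.4 CPM. *Itgb1*, the integrin β1 chain of memory T cells, was at 403 against 61.9 CPM and 635 against 173 CPM. *Ifng*, the gene of interferon-γ (chr10:118441046-118445892, GRCm38, plus strand), had 19 of its 20 UMIs of room air and 257 of its 262 UMIs of hyperoxia in *Ccl5*-positive cells. *Tbx21* (T-bet), the factor that drives *Ifng*, was at 46.7 against 18.2 CPM and 76.9 against 9.33 CPM.

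Of the 15 naive and recirculation genes compared, 4 were at least 2-fold lower in *Ccl5*-positive cells in both libraries and 0 higher. They were *Lef1*, *Dapl1*, *Il6ra* and *Igfbp4*. *Lef1*, a factor of naive T cells, was at 495 CPM in negative and 219 CPM in positive cells of room air and at 488 and 202.5 CPM in hyperoxia. *Tcf7* (TCF1), its relative, was at 714 against 388 CPM and 506 against 223 CPM, under 2-fold in room air. *Dapl1* was found in 13 of 33 negative and 3 of 34 positive cells, and in 51 of 202 and 15 of 215 cells. *Ccr7* did not reach 2-fold in room air either: its log2 ratio was -0.96 [-1.52 to -0.42] there and -1.45 [-1.71 to -1.19] in hyperoxia. *Itgae* (CD103), the integrin that binds epithelial E-cadherin, had the reverse distribution to the effector genes. It was found in 8 of 33 *Ccl5*-negative and 0 of 34 positive cells of room air, and in 57 of 202 negative and 10 of 215 positive cells of hyperoxia. *Itgae* thus lay mostly on the side with more *Lef1* and *Dapl1*, and whether it marked resident cells here was not tested. Over the whole naive list, the median log2 ratio was -0.66 in room air and -1.27 in hyperoxia, beside 0.00 and 0.08 for all 3140 genes.

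**Figure D3:**
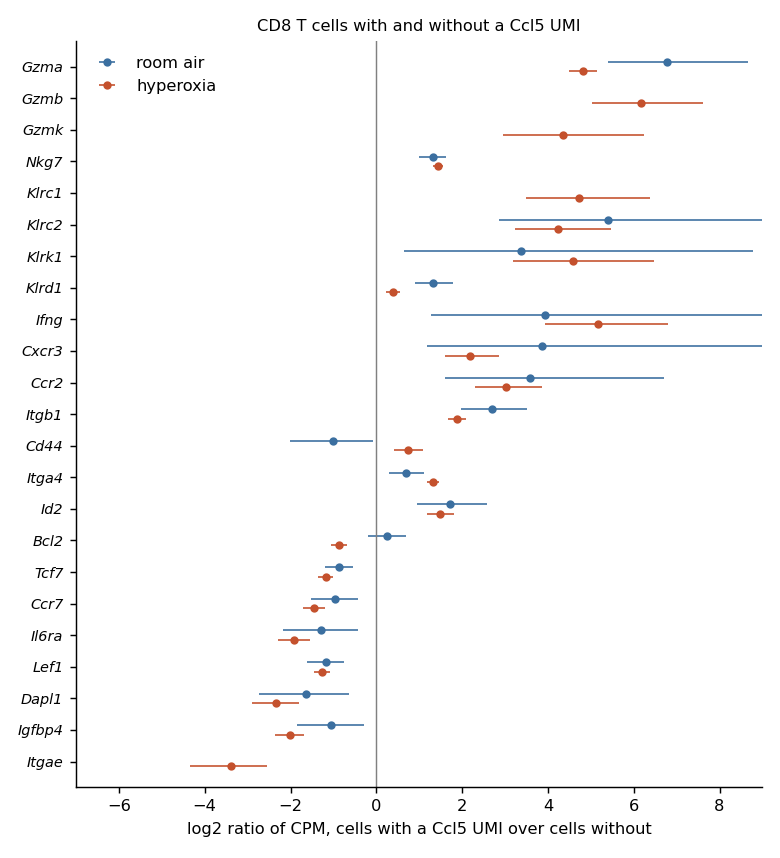
Log2 ratio of the CPM in CD8 T cells with over those without a *Ccl5* UMI (horizontal axis) for genes of the cytotoxic, memory, naive and residency lists, room air in blue and hyperoxia in orange, with exact 95% counting intervals. Genes with 0 UMIs on one side of a library (*Gzmb*, *Gzmk*, *Klrc1* and *Itgae* in room air) have no point there. *Gzma*, *Nkg7*, *Ifng*, *Cxcr3* and *Itgb1* lay to the right and *Tcf7*, *Il6ra*, *Lef1*, *Dapl1* and *Igfbp4* to the left of 0 in both libraries, while *Cd44* was at -1.02 in room air and 0.74 in hyperoxia.

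A smaller group held granzyme A. *Gzma* was detected in 16 of 67 CD8 T cells of room air (23.9%) and 94 of 417 of hyperoxia (22.5%). In room air 1 cell held 44.1% of all *Gzma* UMIs. *Gzmk* was found in 43.8% and 48.9% of *Gzma*-positive cells and in 0% and 4.02% of the others, so both granzymes were often found in the same cells. *Klrg1*, a receptor of terminal effector cells, was found in 5 of 16 and 25 of 94 *Gzma*-positive cells, against 0 of 51 and 3 of 323 of the others. *Mki67*, a marker of proliferation, was found in 37.5% [15.2 to 64.6] and 46.8% [36.4 to 57.4] of *Gzma*-positive cells, and in 11.8% [4.44 to 23.9] and 11.1% [7.93 to 15.1] of the others. *Gzma*-positive cells were deeper (median 10264.5 and 8038.5 UMIs, against 8135 and 5921), which raises the detection of every gene. The level showed the same order: *Mki67* was at 485 against 97.3 CPM in room air and 476 against 128 CPM in hyperoxia. This order is not free of depth either, because deeper cells are more likely to hold a *Gzma* UMI. In room air 1 cell of 24901 UMIs held 1 *Gzma* and 31 *Mki67* UMIs, and another of 22033 UMIs held 1 and 8. Of the 3293 genes compared, 170 were at least 2-fold higher in *Gzma*-positive cells in both libraries (5.16%) and 100 lower (3.04%). Of the 16 cell cycle genes 14 were among the higher, and of the 15 naive genes 6 were among the lower. Only 12 cell cycle genes had a mean of at least 50 CPM over the 2 libraries. Those that entered through their level in 1 kind of cell could count only on that side. *Mki67* or *Top2a* was found in 18 of the 67 CD8 T cells of room air and 125 of the 417 of hyperoxia.

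The 2 chains of CD8 gave a further division. Both *Cd8a* and *Cd8b1* were detected in 46 of 67 cells of room air and 323 of 417 of hyperoxia, *Cd8b1* alone in 20 and 72, and *Cd8a* alone in 1 and 22. The 22 cells with *Cd8a* alone had a median of 4549.5 UMIs, against 6459 in cells with both, so a missed *Cd8b1* molecule and a CD8αα cell cannot be told apart from these counts. *Fcer1g*, an adaptor of innate-like cells, was found in 3 of the 22 cells with *Cd8a* alone and 17 of the 323 cells with both.

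The third comparison set the CD8 T cells of hyperoxia against those of room air. Of 2728 genes with a mean of at least 50 CPM, 49 were at least 2-fold higher in hyperoxia (1.8%) and 11 at least 2-fold lower (0.403%), and the median log2 ratio of all 2728 was 0.05, with 1563 genes above 0 and 1165 below. The count of higher genes rested on the cells that resembled doublets: in 34 of the 49 genes more than 50% of the UMIs of hyperoxia lay in those 29 cells, among them *Eln*, *Aspn*, *Col1a1* and *Mgp* of fibroblasts. Without those cells, 18 genes were at least 2-fold higher, of which 16 were among the 49, and 10 were lower. *Ifng*, *Rgs1*, *S100a6*, *Nr4a2*, *Efhd2*, *Serpinb6b*, *Fosb*, *Erdr1* and *1500009L16Rik* were among the 16, and the others were *Sftpc* and 6 genes of stromal or contractile cells, such as *Acta2* and *Col3a1*. Without the cell that held most UMIs of each gene in each library, 3 genes were at least 2-fold lower in place of 11.

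Among the cytokine genes, *Ifng* was at 32.4 CPM in room air (9 of 67 cells) and 83.6 CPM in hyperoxia (85 of 417 cells), which was 2.58-fold higher [1.64 to 4.3]. At 1500 UMIs per cell the shares of cells with an *Ifng* UMI differed by 4.44 points, with an interval that included 0 [-4.01 to 9.19]. *Itga4* (chr2:79255426-79333123, GRCm38, plus strand), the integrin α4 chain that binds VCAM1 on endothelium, was at 387 and 761 CPM (log2 ratio 0.98 [0.78 to 1.17]). It was just under the 2-fold limit. The share of cells with an *Itga4* UMI at 1500 UMIs per cell was 29.9% and 52.5%, a difference of 22.7 points [9.32 to 34.3], and 12.4 points [-4.05 to 27.3] where both CD8 chains were required. Its partner *Itgb1* was at 251 and 445 CPM (log2 ratio 0.83). *S100a6*, a calcium-binding protein of memory T cells, was at 522 CPM in 22 of 67 cells and 1220 CPM in 187 of 417 cells (log2 ratio 1.23 [1.06 to 1.39]), and 1 cell held 27.0% of its UMIs in room air. *Rgs1*, a regulator of chemokine receptors in resident T cells, was at 50.2 and 118 CPM (log2 ratio 1.23 [0.70 to 1.81]). *Nkg7*, a protein of cytotoxic granules, was at 770 CPM in 55 of 67 cells and 1129 CPM in 363 of 417 cells (log2 ratio 0.55 [0.41 to 0.69]). *Ccl5* itself was at 2212 and 3592 CPM (log2 ratio 0.70 [0.62 to 0.78]), while the shares of cells holding it were 50.7% and 51.6%. All 8 cytotoxic genes that reached a mean of 50 CPM had a log2 ratio above 0, beside 1563 of all 2728 genes. The median of the 8 was 0.25, or 0.67 without the top cell of each gene, and 2 of 8 were past 2-fold. These were the granzyme inhibitors *Serpinb6b* (63.2 and 132 CPM) and *Serpinb9* (35.6 and 71.8 CPM, log2 ratio 0.86 without the doublet-like cells). *Serpinb9* reached the mean of 50 CPM only through hyperoxia, so it could count only as higher. *Gzma* and *Gzmb* had log2 ratios of 0.28 and 0.21. That of *Gzma* was 0.13 without the doublet-like cells, -0.00013 where both CD8 chains were required and 0.97 without the top cell of each library. Of the 5 granzyme, perforin and granule genes below 50 CPM, *Prf1* had 3 UMIs in room air and 40 in hyperoxia, too few for a ratio.

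**Figure D4:**
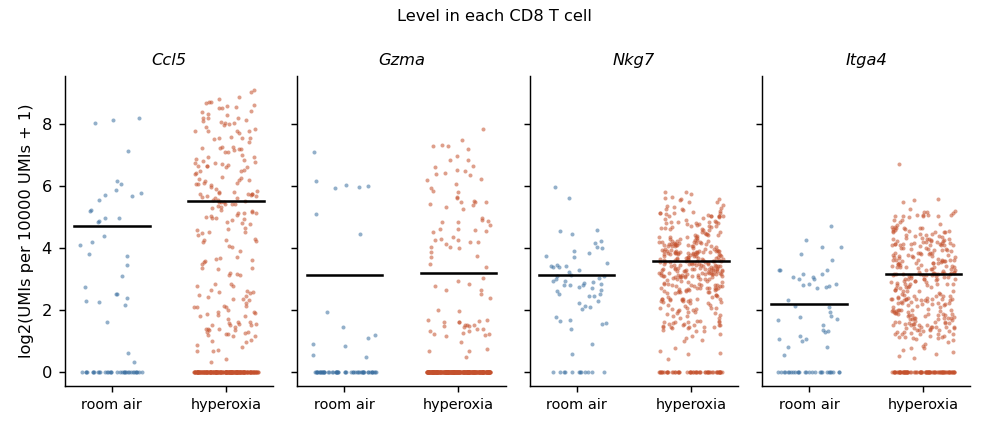
Level of 4 genes in each CD8 T cell, as log2(UMIs per 10000 UMIs of the cell + 1), in the 67 cells of room air (blue) and the 417 cells of hyperoxia (orange). Each point is 1 cell, spread sideways at random, and the black line is the mean over cells before the logarithm. *Ccl5* and *Gzma* were at 0 in many cells of both libraries and spread over a wide range in the rest, while *Nkg7* and *Itga4* were detected in most cells.

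Cytokine, memory and residency genes showed mixed values. Of the 4 cytokine genes compared, *Ifng* was past 2-fold, *Ltb* had a log2 ratio of -0.25 and the median was 0.58. *Ccl4*, below the 50 CPM limit, had 11 UMIs in room air and 151 in hyperoxia (17.8 and 48.2 CPM). Of the 11 memory and effector surface genes 0 were past 2-fold, with a median of 0.09 that ranged from 0.021 to 0.43 over the alternatives. *Cd44*, the classical memory marker, was at 68.1 and 116 CPM (log2 ratio 0.77 [0.31 to 1.27]), and *Klrc2* at 87.5 and 71.8 CPM. *Cxcr3* was at 30.8 and 62.9 CPM (log2 ratio 1.03 [0.35 to 1.79]). Of the 3 residency genes compared *Rgs1* was past 2-fold, *Rgs2* had a log2 ratio of 0.70 and *Cd69* of 0.23. *Itgae*, found mostly in *Ccl5*-negative cells, had 11 UMIs in 8 cells of room air and 108 UMIs in 67 cells of hyperoxia (17.8 and 34.5 CPM, log2 ratio 0.95 [0.06 to 2.00]). Of 9 homing receptors and integrins 0 were past 2-fold, with a median of 0.05. *Id3*, a factor of memory precursors, had a log2 ratio of 1.26, and 0.36 without the doublet-like cells. The inhibitory receptor *Ctla4* was at 60.0 and 36.4 CPM. *Pdcd1* (PD-1) had 1 UMI among 617176 in room air and 39 among 3132369 in hyperoxia, too few in room air for a ratio. The 11 listed inhibitory receptors summed to 248 and 239 CPM, a ratio of 0.966 [0.811 to 1.16].

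Of 15 naive and recirculation genes, 12 had a log2 ratio below 0, beside 1165 of all 2728 genes, with a median of -0.20 (-0.093 without the top cell of each gene) and 0 past 2-fold. *Tcf7* was at 533 CPM in room air, compared with 339 CPM in hyperoxia (log2 ratio -0.65 [-0.83 to -0.47]). *Il7r*, the interleukin-7 receptor, was the clearest exception, at 285 and 379 CPM (log2 ratio 0.41 [0.18 to 0.65]). The lower median was seen on the *Ccl5*-positive side, where the naive list had a median of -0.45 for hyperoxia over room air, while it was 0.02 on the *Ccl5*-negative side. No test of this difference was made. Per cell, the summed naive list had a median of 52.8 UMIs per 10000 in room air (range 5.66 to 115) and 50.1 in hyperoxia (range 3.21 to 133), so the cells of both libraries overlapped over nearly their whole range. The summed cytotoxic list had a median of 15.5 (range 0 to 195) and 21.7 (range 0 to 295), which overlapped as widely. Genes of thymocytes were scarce: *Dntt* had 17 UMIs in 3 cells of room air and 16 in 4 cells of hyperoxia, and *Rag1* 10 in 2 cells and 14 in 4 cells.

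Of the 24 genes of the response to interferon, 10 reached 50 CPM. All 10 had a log2 ratio below 0, beside 1165 of all 2728 genes, with a median of -0.33 and 1 past 2-fold. That gene, *Ifi27l2a*, was at 342 CPM (45 of 67 cells) in room air and 164 CPM (168 of 417 cells) in hyperoxia, a log2 ratio of -1.06 [-1.29 to -0.82]. At 1500 UMIs per cell it was found in 23.9% and 19.0% of cells, a difference of -4.84 points with an interval that included 0 [-17.4 to 5.57]. *Gbp7*, a guanylate-binding protein, was at 118 and 76.9 CPM. The 12 genes of MHC class I presentation had a median of 0.03, with *Tap1* at -0.48 and *Tapbp* at 0.45. *Ifi27l2a* and *Gbp7* had log2 ratios of -0.89 and -0.48 in CD4 T cells and -1.02 and -0.30 in B cells.

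Immediate early genes respond within minutes to receptor signals and to tissue digestion. Of 24 genes, 18 had a log2 ratio of hyperoxia over room air above 0, beside 1563 of all 2728 genes. Of these, 5 were past 2-fold, beside 1.8% of all genes, and the median was 0.24. *Fosb* was at 50.2 and 158 CPM, *Egr1* at 89.1 and 256 CPM, *Dusp1* at 82.6 and 195 CPM, and *Fos* at 169 and 350 CPM. Without the doublet-like cells the log2 ratios of these 4 genes were 1.60, 0.56, 0.84 and 0.93. In CD4 T cells they were 0.96, 1.02, 1.13 and 1.16, and in B cells 0.99, 0.54, 0.64 and 0.84, so these genes were higher in hyperoxia in all 3 types. *Nr4a2*, an orphan nuclear receptor induced by the T cell receptor, was at 107 CPM (25 of 67 cells) and 231 CPM (228 of 417 cells). Its log2 ratio was 1.11 in CD8 T cells, 0.49 in CD4 T cells and 0.23 in B cells. Its relatives *Nr4a1* and *Nr4a3* had log2 ratios of 0.19 and 0.33. *Pim1* (log2 ratio -0.56) and *Nfkbia* (-0.32) went the other way.

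**Figure D5:**
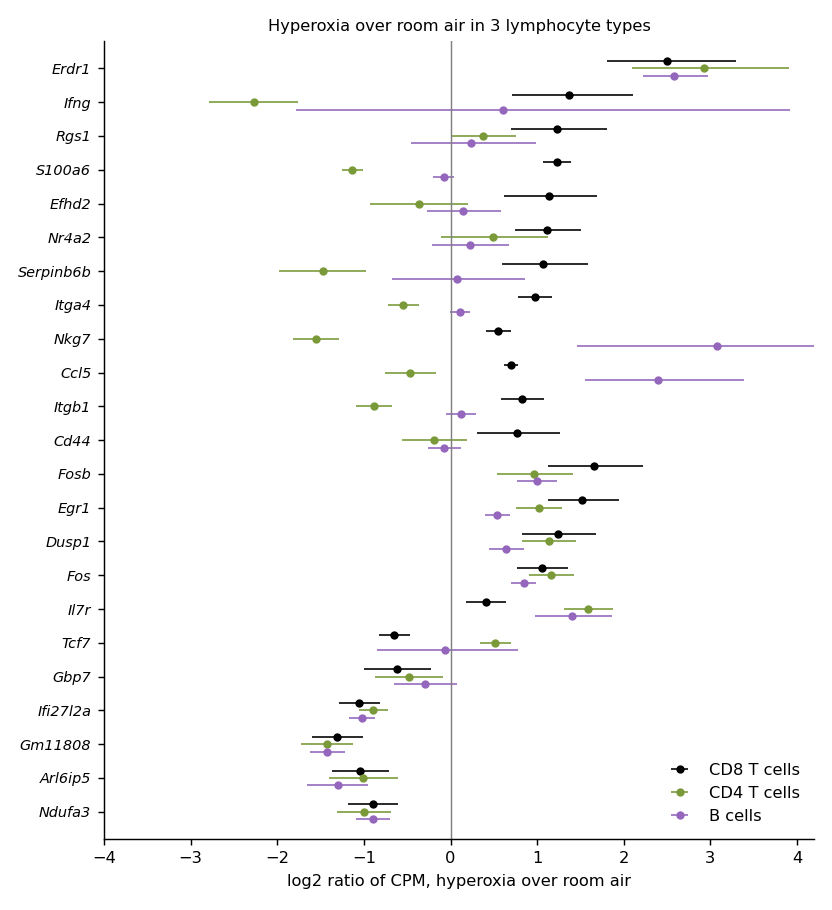
Log2 ratio of the CPM in hyperoxia over room air (horizontal axis) in CD8 T cells (black), CD4 T cells (green) and B cells (purple) with exact 95% counting intervals, 1 library per group. *Ifng*, *S100a6*, *Serpinb6b*, *Itga4*, *Nkg7*, *Ccl5* and *Itgb1* lay above 0 in CD8 and below 0 in CD4 T cells, while *Fos*, *Fosb*, *Dusp1* and *Egr1* lay above 0 and *Gbp7*, *Ifi27l2a*, *Gm11808*, *Arl6ip5* and *Ndufa3* below 0 in all 3 types. The point for *Nkg7* in B cells rests on few UMIs. NK cells are not drawn.

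Of the 8 cytotoxic genes, all 8 had a log2 ratio above 0 in CD8 T cells and 1, *Gzma*, in CD4 T cells. Among the 8, *Serpinb9* reached a mean of 50 CPM only through the CD8 T cells of hyperoxia. Of the 11 memory and effector surface genes 7 were above 0 in CD8 and 0 in CD4 T cells. Over all 2728 genes 1563 were above 0 in CD8 T cells, and the share in CD4 T cells is not given here. Lists without effector genes also had few members above 0 in CD4 T cells: 1 of 12 cell cycle and 1 of 10 hypoxia and glycolysis genes. Of the naive genes 14 of 15 were above 0 in CD4 T cells, and of the immediate early genes 19 of 24. *Ifng* had a log2 ratio of 1.37 in CD8 and -2.27 in CD4 T cells, where it was at 149 CPM in room air, compared with 30.8 CPM in hyperoxia. *S100a6* had 1.23 in CD8 and -1.13 in CD4 T cells, *Serpinb6b* 1.07 and -1.47, *Itga4* 0.98 and -0.54, *Itgb1* 0.83 and -0.88, and *Nkg7* 0.55 and -1.55. *Rgs1* had the same sign in both types, 1.23 and 0.38. *Tcf7* had the opposite order, -0.65 in CD8 but 0.52 in CD4 T cells. CD8 and CD4 T cells came from the same pair of libraries, and the difference between the types was not tested. In the 18 and 63 NK cells the log2 ratio was 0.99 for *Ccl5*, 0.87 for *Serpinb9*, 0.73 for *Nr4a2* and 0.31 for *Serpinb6b*. There it was 0.04 for *Ifng*, -0.15 for *Itga4*, -0.20 for *S100a6* and -0.52 for *Rgs1*. The higher *Ccl5* and *Serpinb9* were thus not limited to CD8 T cells.

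*Erdr1*, annotated on chromosome Y of GRCm38, was at 27.5 CPM (12 of 67 cells) in room air and 156 CPM (234 of 417 cells) in hyperoxia, a log2 ratio of 2.50, with 2.93 in CD4 T cells and 2.58 in B cells. *Gm11808*, a predicted gene, was at 235 and 94.8 CPM (log2 ratio -1.31, and -1.43 and -1.42 in CD4 T and B cells). *Arl6ip5* had a log2 ratio of -1.04, with -1.01 in CD4 T cells and -1.30 in B cells. *Ndufa3*, a complex I subunit, was at 227 and 122 CPM in CD8 T cells and at 227 and 114 CPM in CD4 T cells. *Tmem108*, *Ap1b1*, *Pqbp1*, *Nop58* and *Epb41l4aos* were lower in CD8 T cells, at log2 ratios of -1.08 to -0.96. In CD4 T and B cells *Tmem108* was at 0.28 and 0.58, *Ap1b1* at -0.0063 and 0.018, and the other 3 at -0.70 to -0.25. *Efhd2* was at 53.5 and 117 CPM (log2 ratio 1.13, and -0.37 in CD4 T and 0.15 in B cells). *1500009L16Rik* was at 37.3 and 95.5 CPM (log2 ratio 1.36, and -1.47 and 0.08), and 43.5% of the UMIs of the latter in room air were in 1 cell. *Inmt*, a gene of lung fibroblasts, met the naming rule with a log2 ratio of -2.36, but all 105 of its UMIs in room air were in 1 cell.

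In the main analysis the medians of the proliferation, metabolism, antioxidant, signalling and cytokine receptor lists lay between -0.11 and 0.07. The 12 cell cycle genes had a median of -0.11 and 0 past 2-fold, with a median of 0.24 without the top cell of each gene, and *Mki67* was at 214 CPM in 12 of 67 cells and 230 CPM in 80 of 417 cells (log2 ratio 0.11, and -0.27 as a mean over cells). The 12 antioxidant genes had a median of 0.05, the 10 genes of hypoxia and glycolysis 0.04, and the 15 genes of T cell signalling 0.07, each with 0 genes past 2-fold. The 11 cytokine receptor and SOCS genes had a median of -0.01 and 0 past 2-fold. *Hmox1*, haem oxygenase 1, was at 24.3 and 7.66 CPM from 15 and 24 UMIs. Of the p53 targets, *Bax* was at 87.5 and 131 CPM (log2 ratio 0.58). *Cdkn1a* (p21), an inhibitor of the cell cycle, had 10 UMIs in room air and 235 in hyperoxia (log2 ratio 2.21 [1.31 to 3.29]), and its log2 ratio was 1.02 without the doublet-like cells. In B cells the log2 ratio of *Cdkn1a* was 2.74 and in CD4 T cells 0.84.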

How the data were processed

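Lungs of both groups were profiled by droplet scRNA-seq. The authors ran Cell Ranger on mm10 and deposited its raw UMI counts for every gene and barcode, whole numbers with no normalization. The submitters' processing notes name version 2.1.1, the labels' protocol 6.1.1 and the matrix headers software version 3.1.0. The labels and the study's methods name different kit versions.

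Counts of 27998 gene rows were summed by symbol (27933) in Python 3.11.15 (pandas 2.3.3, scipy 1.17.1, numpy 2.4.6). Figures were drawn with matplotlib 3.10.9. UMIs were summed over the cells of a type in each library and divided by their total, giving CPM with exact Poisson intervals. Ratios have exact conditional intervals and shares exact Clopper-Pearson intervals, at 95%. With 1 library per group no test was run, and genes were described past 2-fold at a mean of at least 50 CPM. Some reached this mean only through 1 library, as *Ifng* and *Serpinb9* did through hyperoxia and *Tmem108* and *Ap1b1* through room air. Such genes could count only in that direction. CD4 T cells were compared with the same limits, NK cells by *Ncr1* or *Klrb1c* with *Nkg7* and B cells by at least 2 UMIs of *Cd79a*, *Cd79b* and *Ms4a1*, both with no CD3 UMI. Shares at equal depth used cells thinned to 1500 UMIs, which left out 0 and 2 CD8 T cells. Doublets stayed in, and their removal by simulated neighbours (scikit-learn 1.9.0) was an alternative. The share removed was set beforehand by the number of barcodes in each library, and was larger in hyperoxia. The intervals were checked on simulated Poisson counts, which is the model they assume. That check cannot show how they perform where few cells hold many UMIs of a gene.

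Genes named were those of the selection and of 28 lists, the 10 highest and 10 lowest ratios of hyperoxia over room air, and the 10 highest and 10 lowest of CD8 over CD4 T cells, ranked by the library nearer to 1. Both sets needed 50 CPM, in the higher type for the second. In the second set a gene that reached 50 CPM in 1 type only could count only on that side. The first also needed a counting interval that left out 1 and a level at least that of all other barcodes. Mitochondrial, ribosomal protein, haemoglobin, immunoglobulin and sex-linked marker genes were left out. *Eln*, *Aspn*, *Mgp*, *Acta2* and *Col3a1* were named after their values were seen. The members and lists were chosen with earlier results of these data known, and the divisions by *Gzma* and by *Mki67* or *Top2a* after the data were seen. Gene positions come from GENCODE vM21 (GRCm38). Of the 361 list genes, 11 T cell receptor and immunoglobulin genes were not used here.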

Additional observations from a re-analysis of the deposited data

How the results depend on the processing

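Of the alternatives tried, 88 summary values stayed within their limits, 36 moved and 2 changed sign. Of the single gene values 678 stayed, 45 moved and 1 with an interval apart from 0 changed sign; counting every change of sign, *Cd8a*, *Gzma*, *Lat*, *Mki67* and *Top2a* had at least 1. Of these alternatives, removing the cell with the most UMIs of each gene was chosen after seeing the data. With barcodes thinned before selection, the CD8 share differed by 0.919 points. Genes at least 2-fold higher numbered 49, against 91 without the exclusion genes, 18 without doublet-like cells, 22 at a mean of at least 100 CPM and 171 at 20 CPM. Genes at least 2-fold lower numbered 11, against 30 with totals without mitochondrial, ribosomal protein and haemoglobin genes, 7 at 100 CPM, 46 at 20 CPM and 3 without the top cell. A higher or lower level minimum tests fewer or more genes; for the other changes the cause was not tested. Medians of lists moved as follows. Requiring both CD8 chains gave 0.21 for memory, 0.31 for immediate early and -0.0052 for cell cycle genes, and -0.00013 for *Gzma*. At least 3 CD3 UMIs gave -0.0013 for cell cycle genes. Without exclusion genes memory was at 0.19 and cell cycle at -0.011. Without doublet-like cells naive was at -0.13 and immediate early at 0.20. The other totals gave -0.28 for naive, 0.17 for cytotoxic, 0.19 for memory, -0.42 for interferon and 0.16 for immediate early genes, and median-of-ratios factors 0.19 for the last. Means over cells gave -0.091, 0.36, 0.29, -0.46 and 0.32 in that order, and -0.25 for cell cycle. Memory was at 0.23 with at least 100 CPM and 0.27 with 20 CPM, where cell cycle was at 0.0050. Without the top cell the 6 lists were at -0.093, 0.67, 0.43, -0.21, 0.42 and 0.24. Removing 1 of 67 cells weighs more in room air than 1 of 417 in hyperoxia, and the medians of all 6 lists rose. At 2000 UMIs the *Nr4a2* share differed by 7.71 points, and at 1500 UMIs by 21.2. T cell receptor variable and constant genes were planned but not analysed here. No paired analysis was possible because each group had 1 library.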
